A study of Mus musculus with 12 samples.

Results

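The mRNA of 10 peptide precursors of forebrain neurons, Sst, Cort, Npy, Cck, Vip, Penk, Pdyn, Tac1, Crh and Pnoc, was followed in Shank3 mutant mice as juveniles and as adults. The members were chosen by gene symbol from the 19268 genes of the expression table, and all 10 were found there with values above 0 in all 12 libraries. They were put together with a result of these data known, namely the level of Sst in adult mutant against adult wild-type mice, so that comparison is given here as a description and without a test. The 4 groups were P25-WT, P25-KO, P60-WT and P60-KO, with 3 libraries each, where P25 and P60 are postnatal days, WT is wild-type and KO is homozygous for a deletion of exons 14 to 16 of Shank3, a gene for a scaffold protein of excitatory synapses. All mice were male, on the C57BL/6J strain, and RNA came from whole forebrain without the olfactory bulb, so no cell type was isolated.

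Neuropeptides are cut from larger precursor proteins, packed into dense core vesicles and released to act on G protein-coupled receptors, usually more slowly and over a longer range than glutamate or GABA. In the cortex and hippocampus, the genes for somatostatin, neuropeptide Y, vasoactive intestinal peptide and cholecystokinin are used to tell classes of GABA interneurons apart. In the striatum, enkephalin, dynorphin and substance P precursors mark the projection neurons of the indirect and direct pathways. Several of these genes are textbook targets of signalling through cyclic AMP and calcium, which acts on a short promoter element read by the factor CREB.

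The promoters of 5 of the genes are shown because 4 of them, Sst, Cort, Npy and Cck, were called between ages below, with Vip beside them as a gene that was not, and because the cyclic AMP response element is well known from the Sst promoter. Each run gives the 150 bases before the RefSeq start on the strand of the gene, in the GRCm38.p6 build. Capitals mark the full element in Sst, the letters TGCGTCA in Cort and Cck, and in Vip the shorter letters TGACG with the 3 bases after them, and Npy has no capitals because none of the letters searched were in its window.
Sst, chr16:23890845-23890994, minus strand: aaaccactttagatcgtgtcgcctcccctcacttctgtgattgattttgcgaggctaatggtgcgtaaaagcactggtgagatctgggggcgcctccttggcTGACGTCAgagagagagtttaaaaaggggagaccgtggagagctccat
Cort, chr4:149126764-149126913, minus strand: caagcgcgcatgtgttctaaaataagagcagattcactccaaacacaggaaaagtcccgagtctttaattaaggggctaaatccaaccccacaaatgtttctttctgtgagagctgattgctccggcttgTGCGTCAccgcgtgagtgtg
Npy, chr6:49822560-49822709, plus strand: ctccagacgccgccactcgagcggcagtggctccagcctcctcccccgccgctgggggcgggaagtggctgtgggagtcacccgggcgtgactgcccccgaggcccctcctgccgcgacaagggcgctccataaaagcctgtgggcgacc
Cck, chr9:121495695-121495844, minus strand: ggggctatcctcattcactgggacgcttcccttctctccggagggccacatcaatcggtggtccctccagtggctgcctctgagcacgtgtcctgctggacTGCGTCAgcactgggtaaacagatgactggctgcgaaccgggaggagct
Vip, chr10:5639068-5639217, plus strand: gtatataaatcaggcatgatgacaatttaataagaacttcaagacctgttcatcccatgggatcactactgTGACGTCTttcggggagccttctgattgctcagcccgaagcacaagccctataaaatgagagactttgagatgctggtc

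Promoter windows from 250 bases before to 50 bases after the start were matched for 7 of the 10 genes. The full element TGACGTCA was in the window of Sst only, with its first base at position -48, and in 1.79% of all 32851 promoter windows. The letters TGCGTCA were in the windows of Cck at -49, Cort at -20 and Tac1 at -199, and in 2.12% of all windows. The shorter letters TGACG, on either strand, was in the windows of Sst, Vip, Cck, Tac1 and Cort, and in 20.8% of all windows. They are contained in the full element and, read on the other strand, in TGCGTCA, so the matches in Sst, Cck and Cort are not separate. Tac1 has a match inside its TGCGTCA and another at -43 outside it. The match of Vip at -79 is in neither of the longer forms. A match is a description of the letters, and binding was not measured.

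The labels and the libraries were checked before the members were compared. Shank3, the gene targeted, was lower in KO than in WT mice by log2 fold changes of -1.06 at P25 and -0.99 at P60 (limma, adjusted p = 0.0134 and 0.0022), and its highest KO library, with 5729 normalized counts, lay below its lowest WT library, with 8936. The table sums ranged from 30568259 to 32348554 normalized counts per library, where a normalized count is the estimated number of fragments after the authors' scaling. P25-WT replicate 2 stood apart for the neuropeptides. It was the highest of its group for 8 of the 10 genes, with a median deviation of 0.36 on the log2 scale from the other 2 libraries, against -0.0039 over all genes. Within P25-WT, genes with a median transcript length under 800 bases deviated in that library by a median of 0.12 and genes of 2000 bases or more by -0.11, and the part of transcript length in the members' values was not tested. P25-KO replicate 3 was the highest of its group for 9 of the 10 genes, with a median deviation of 0.19. Values without P25-WT replicate 2 are given for Sst, Cort, Npy and Cck with age in WT mice and for other genes where stated.

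**Figure D1:**
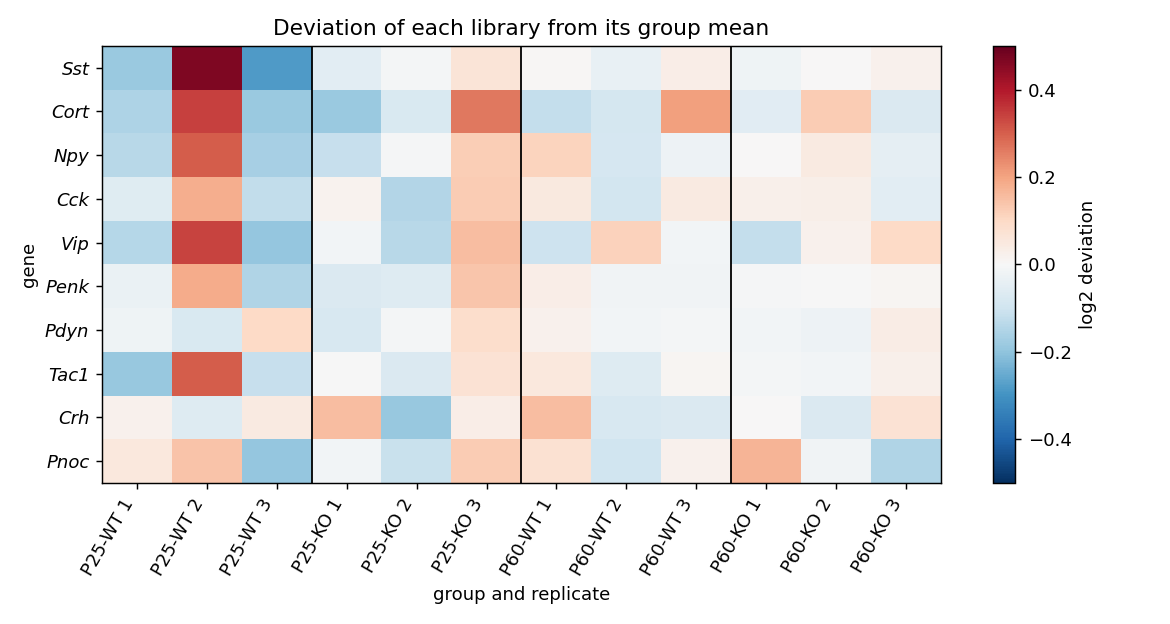
Log2 deviation of each library (columns, group and replicate) from the mean of its own group for the 10 precursor genes (rows); red is above and blue below the group mean. P25-WT replicate 2 is red for most genes, and the libraries of the P60 groups deviate less.

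The order of transcript levels was taken per kilobase, since a longer transcript gives more fragments. With the median annotated transcript length, the mean over 12 libraries was 11128 normalized counts per kilobase for Cck, 6905 for Sst, 5266 for Penk and 2553 for Npy. It was 1421 for Pdyn, 1149 for Tac1, 301.2 for Vip, 199 for Cort, 181 for Pnoc and 96.5 for Crh. Within a group of 3 libraries, the ranges of neighbours in this order overlapped for Vip and Cort in 2 of the 4 groups and for Cort and Pnoc in 3, where the levels did not differ beyond their spread. In both P60 groups the mean of Pnoc was above that of Cort, with 182 against 170.1 normalized counts per kilobase in P60-KO and 162 against 153 in P60-WT libraries. For the other neighbours, Cck and Sst included, they overlapped in 0 of the 4 groups. With the longest transcript, Tac1 stood above Pdyn (570 against 385 normalized counts per kilobase), and the order of the other genes was kept.

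**Figure D2:**
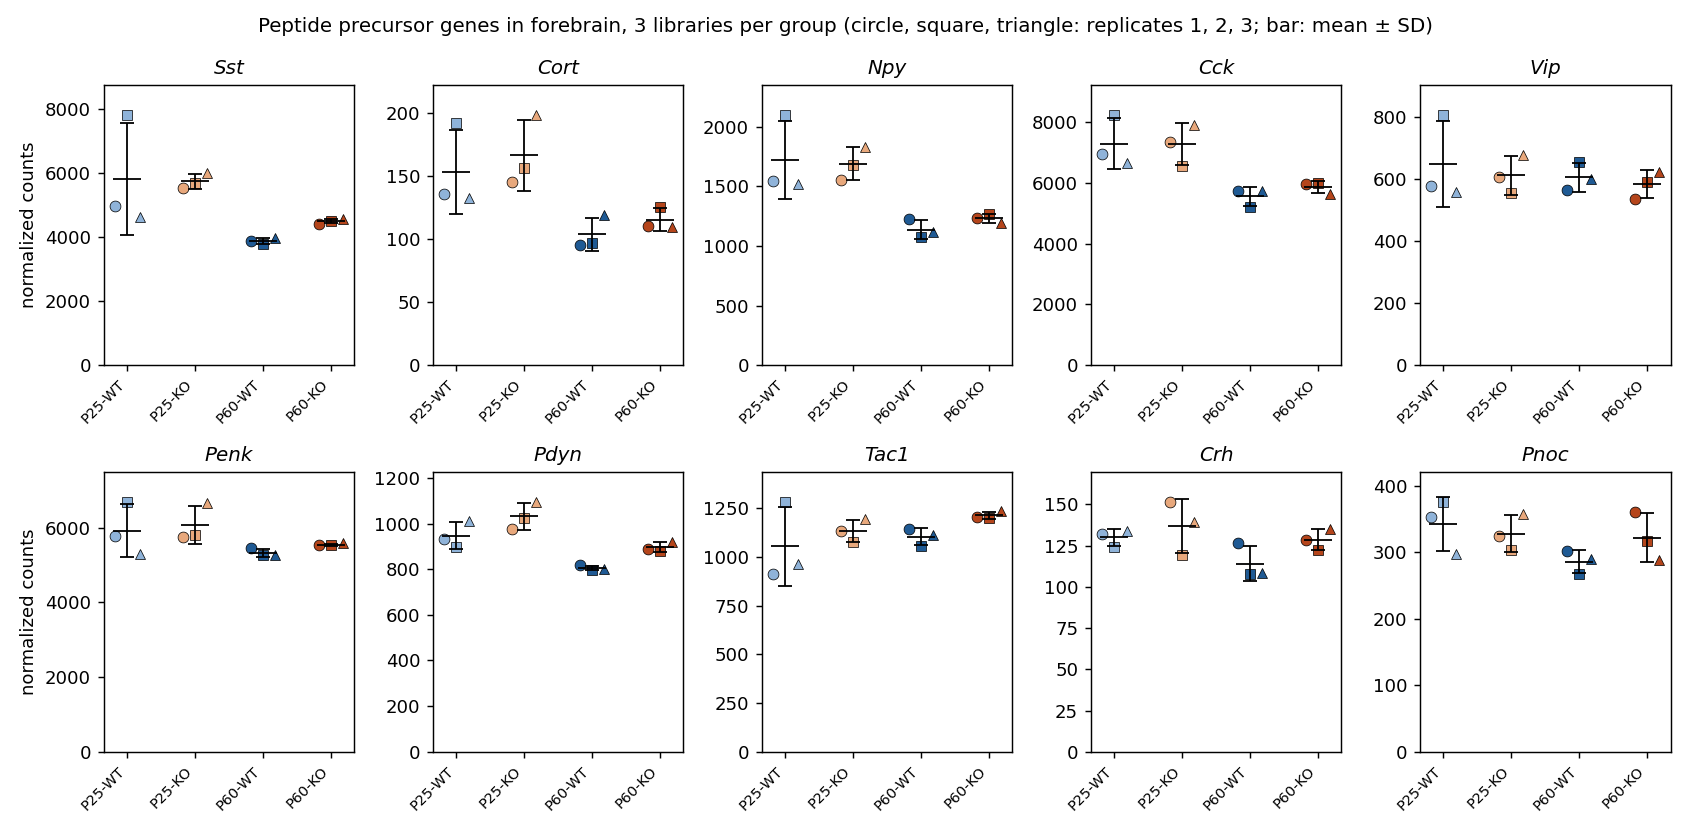
Normalized counts of the 10 precursor genes (vertical axes, from 0) in each library of the 4 groups; horizontal bars are means and error bars are SD over 3 libraries. Sst, Cort, Npy and Cck are lower at P60 than at P25 in both genotypes, Tac1 is not, and the P60-KO libraries of Sst lie between 4417 and 4553, all above the P60-WT libraries.

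Sst encodes the precursor of somatostatin, an inhibitory peptide of dendrite-targeting interneurons (ENSMUSG00000004366, GRCm38 chromosome 16, 23889573 to 23890958, minus strand, 2 exons). It had 4972, 7810 and 4639 normalized counts in the 3 P25-WT libraries and 5532, 5698 and 6000 in the P25-KO libraries. It had 3888, 3772 and 3964 in the P60-WT libraries and 4417, 4498 and 4553 in the P60-KO libraries. The P25-KO libraries lay inside the wide P25-WT range, every P60 library lay below every P25 library of either genotype, and every P60-KO library lay above every P60-WT library.

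From P25 to P60, Sst fell in KO mice, from 5743 ± 237 to 4490 ± 68.5 normalized counts (SD, n = 3 each), a log2 fold change of -0.35 ± 0.05 (SE; limma with Benjamini-Hochberg adjustment over all genes, adjusted p = 0.00198). The other alternatives kept this call, with adjusted p from 0.00143 to 0.0319, except the fit with all 12 libraries, where the adjusted p was 0.101. In WT mice Sst had 5807 ± 1743 at P25 and 3875 ± 96.6 at P60 (SD, n = 3 each), a log2 fold change of -0.54 ± 0.17 (SE) that missed the threshold (limma, adjusted p = 0.0746). Without P25-WT replicate 2 the WT difference was smaller and passed it, at -0.31 (limma, adjusted p = 0.00901), while the adjusted p over the alternatives ran from 0.00901 to 0.204. It also passed without P25-WT replicate 3, at -0.69 (limma, adjusted p = 0.0257), and with all 12 libraries in the fit (limma, adjusted p = 0.0158). The lower level at P60 was thus called in KO mice except in the fit with all 12 libraries, and in WT mice the call depended on the libraries used.

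Cort encodes cortistatin, a peptide related to somatostatin that binds the same receptors (ENSMUSG00000028971, chromosome 4, 149125034 to 149126763, minus strand). It had 136, 192 and 133 normalized counts in P25-WT, 145, 156 and 198 in P25-KO, 94.9, 97.1 and 119 in P60-WT and 111, 126 and 109 in P60-KO libraries. All P60 libraries were below all P25 libraries, and P25-KO replicate 3 and P25-WT replicate 2 were the highest. Cort fell in KO mice, with a log2 fold change of -0.52 ± 0.15 (SE; limma, adjusted p = 0.0368). This call was lost without P25-KO replicate 2 or 3 or without P60-KO replicate 1 or 3, where the adjusted p reached 0.130. It was also lost with the replicate block, without the variance trend and with all 12 libraries in the fit (limma, adjusted p = 0.0605, 0.0658 and 0.0616). In WT mice the log2 fold change was -0.55 ± 0.19 and was not called (limma, adjusted p = 0.0979), without P25-WT replicate 2 it was -0.38 (limma, adjusted p = 0.178), and with all 12 libraries in the fit it passed (limma, adjusted p = 0.0408).

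Npy encodes neuropeptide Y, found in neurogliaform cells and in many somatostatin interneurons (ENSMUSG00000029819, chromosome 6, 49822710 to 49829507, plus strand). It had 1546, 2100 and 1517 normalized counts in P25-WT, 1558, 1676 and 1833 in P25-KO, 1225, 1072 and 1115 in P60-WT and 1233, 1270 and 1193 in P60-KO libraries. All P60 libraries lay below all P25 libraries, and P25-WT replicate 2 was again the highest of all. Npy fell with age in both genotypes, with log2 fold changes of -0.58 ± 0.13 (SE) in WT mice (limma, adjusted p = 0.0313) and -0.45 ± 0.07 in KO mice (limma, adjusted p = 0.0030). Without P25-WT replicate 2 the WT value was -0.43 (limma, adjusted p = 0.00904).

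Cck encodes cholecystokinin, made by a class of basket cells and, at lower levels per cell, by many cortical glutamatergic neurons (ENSMUSG00000032532, chromosome 9, 121489824 to 121495694, minus strand). It had 6968, 8242 and 6665 normalized counts in P25-WT, 7353, 6560 and 7919 in P25-KO, 5735, 5205 and 5731 in P60-WT and 5970, 5987 and 5651 in P60-KO libraries. The ages did not overlap in either genotype. Cck fell, with log2 fold changes of -0.39 ± 0.09 (SE) in WT mice (limma, adjusted p = 0.0361) and -0.31 ± 0.07 in KO mice (limma, adjusted p = 0.0131). Without P25-WT replicate 2 the WT value was -0.30 (limma, adjusted p = 0.0138). Of 10 cortical glutamatergic markers, 2 were called lower and 0 higher with age in WT mice and 4 lower and 1 higher in KO mice, with list medians of -0.16 and -0.15, and their part in the Cck difference was not tested.

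The WT calls of Npy and Cck were both lost without P25-WT replicate 1 or without any of the P60-WT libraries, where the adjusted p over both genes ranged from 0.0683 to 0.134 while the log2 fold changes stayed between -0.65 and -0.34. Both WT calls were also lost without the variance trend (limma, adjusted p = 0.0953 for Npy and 0.111 for Cck). In KO mice both calls were kept when any library was left out, and that of Cck was lost without the variance trend (limma, adjusted p = 0.0770).

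Vip encodes vasoactive intestinal peptide, of interneurons that mainly inhibit other interneurons (ENSMUSG00000019772, chromosome 10, 5639218 to 5647617, plus strand). Its values ran from 557 to 806 normalized counts in P25-WT, 553 to 678 in P25-KO, 563 to 655 in P60-WT and 535 to 624 in P60-KO libraries, and the ages overlapped in both genotypes. The log2 fold changes with age were -0.08 with a 95% interval from -0.41 to 0.26 in WT mice and -0.07 from -0.28 to 0.15 in KO mice, and the WT value turned to 0.09 without P25-WT replicate 2. The WT interval is wide enough to hold the values of Cck in either genotype.

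Among the striatal precursors, Penk gives enkephalins and Pdyn dynorphins, which act on opioid receptors, and Tac1 gives substance P and neurokinin A. Penk (ENSMUSG00000045573, chromosome 4, 4133531 to 4138819, minus strand) had 5301 to 6690 normalized counts over the 6 P25 libraries and 5263 to 5573 over the 6 P60 libraries. Pdyn (ENSMUSG00000027400, chromosome 2, 129686565 to 129699844, minus strand) had 897 to 1095 at P25 and 798 to 920 at P60. Tac1 (ENSMUSG00000061762, chromosome 6, 7554879 to 7565834, plus strand) had 914 to 1283 at P25 and 1055 to 1234 at P60. None of them was called with age when each genotype was fitted alone. With all 12 libraries in the fit Pdyn passed the threshold in WT mice (limma, adjusted p = 0.0409). The log2 fold changes of Pdyn were -0.23 ± 0.09 (SE) in WT mice (limma, adjusted p = 0.123) and -0.20 ± 0.07 in KO mice (limma, adjusted p = 0.0690), and its ages did not overlap within either genotype. Tac1 was the only member with estimates above 0, at 0.08 ± 0.13 in WT mice, where it was 0.23 without P25-WT replicate 2, and 0.10 ± 0.07 in KO mice. Without that library the WT value of Penk was -0.05 against -0.15 with it. Penk overlaps a gene on the opposite strand, A830012C17Rik, with which 10.9% of its 31-base words are shared, and whether strand was used in the quantification was not stated.

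Crh encodes corticotropin-releasing hormone, a stress peptide that is also present in some interneurons, and Pnoc encodes the precursor of nociceptin. Crh (ENSMUSG00000049796, chromosome 3, 19693401 to 19695396, minus strand) had 119 to 152 normalized counts over the P25 libraries and 108 to 135 over the P60 libraries. Pnoc (ENSMUSG00000045731, chromosome 14, 65400673 to 65425472, minus strand) had 298 to 376 at P25 and 267 to 361 at P60. The ages overlapped for Crh and Pnoc in both genotypes, and neither gene was called, with log2 fold changes between -0.25 and -0.03. The WT value of Pnoc was -0.18 without P25-WT replicate 2 against -0.25 with it.

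Counted together, 2 of the 10 members were called in WT mice from P25 to P60, both lower, where 8.65% of the 17581 genes tested were called, 4.99% lower and 3.66% higher. Leaving out 1 library moved these counts to between 0 and 3 members and between 122 and 2403 genes, with 0 members without P25-WT replicate 1 or any of the P60-WT libraries, and 3 without P25-WT replicate 2 or 3. In KO mice 4 of the 10 were called, all lower, where 20.7% of 17596 genes were called, 11.3% lower and 9.37% higher, and leaving out 1 library gave 3 to 4 members and 2093 to 3230 genes. The split over all genes was 644 higher and 877 lower in WT mice and 1649 higher and 1992 lower in KO mice, and when all libraries were given equal totals it turned to 991 and 681 and to 2108 and 1620, while the calls of the members were kept. The median log2 fold change of the members was -0.24 in WT mice and -0.16 in KO mice, against -0.0012 and 0.0057 over all genes tested, and without P25-WT replicate 2 the WT median was -0.25. Groups that did not overlap, with P60 lower, were found for 5 members in WT mice (18.4% of all genes) and 6 members in KO mice (20.5%). In the other direction 1 member, Tac1, was found in KO mice (18.9%) and 0 in WT mice (17.6%). Since the RNA came from whole forebrain, fewer cells of a type and less RNA per cell cannot be told apart in any of these values. The age comparisons use the same P60 libraries as the comparison that was known when the members were chosen.

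**Figure D3:**
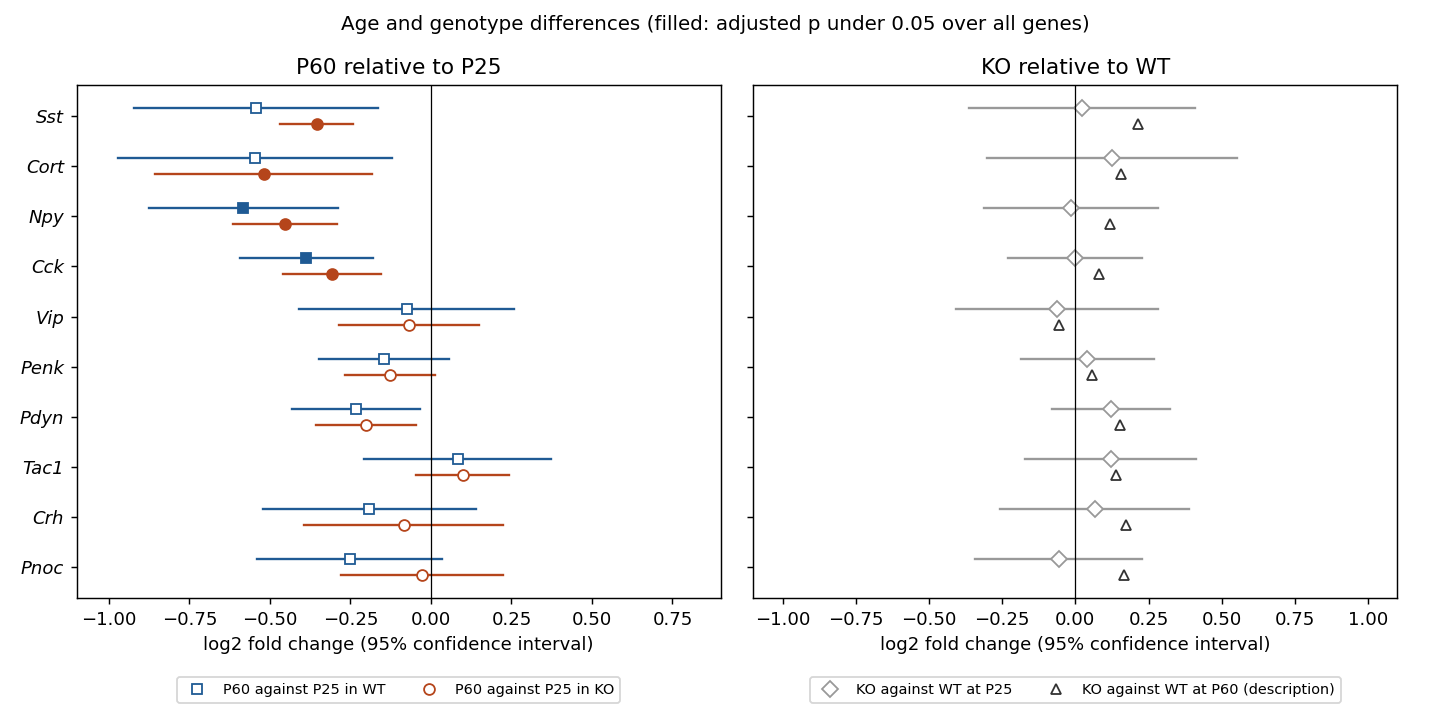
Log2 fold changes of the 10 precursor genes with 95% confidence intervals (none for the P60 genotype values), P60 relative to P25 within each genotype (left) and KO relative to WT within each age (right); filled symbols passed an adjusted p of 0.05 over all genes. On the left Sst, Cort, Npy and Cck are filled for KO mice and Npy and Cck for WT mice; on the right none is filled, and the P60 values are shown as a description.

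Other tissue markers also differed between the ages. The summed level of 8 oligodendrocyte markers was 452435 to 533442 normalized counts in P25-WT and 200820 to 219791 in P60-WT libraries, and 409881 to 484837 in P25-KO and 205061 to 227983 in P60-KO libraries, with 8 of 8 markers called lower in each genotype. The summed level of 24 GABA interneuron markers without the neuropeptides stayed between 54228 and 61303 over all 12 libraries. Of these 24, none was called in WT mice, where Gad2 was called higher (0.19) and 1 marker lower without P25-WT replicate 2, and in KO mice 3 were called lower, Npas1 and Htr3a among them, and none higher. The summed level of 15 striatal projection neuron markers was between 52391 and 60017 in all libraries, with 1 marker called higher and 1 lower in WT mice and 2 lower in KO mice, where 12 of 15 estimates were below 0. The summed level of 9 astrocyte markers was 140035 to 146745 in P25-WT and 116105 to 124566 in P60-WT libraries, and 133193 to 149992 in P25-KO and 112425 to 124814 in P60-KO libraries, with 4 of 9 markers called lower in each genotype. Of 6 choroid plexus markers 1 was called higher in WT and 2 in KO mice, with Kl in both (log2 fold changes of 0.72 and 0.51). Of 8 hippocampal markers 1, Zbtb20, was called higher in both (0.73 and 0.76), and of 9 thalamic markers 1 was called lower in WT and 2 in KO mice, with Ramp3 in both (-0.93 and -0.68). Cerebellar markers, 5 in all, summed to 686 to 886 normalized counts over the P25 libraries, 606 to 2210 in P60-WT and 618 to 1073 in P60-KO libraries, and the list medians with age were 1.258 in WT and 0.97 in KO mice. Of these 5, En2 was called higher in KO mice (0.66; limma, adjusted p = 0.0351). Without P60-WT replicate 2 the WT median of the 3 cerebellar markers still tested was -0.07, and without P60-KO replicate 1 the KO median of 4 was 0.27. Sst with age was -0.52 in WT mice without the former library, where the calls of Npy and Cck were lost, and -0.34 in KO mice without the latter, where the calls of Sst, Npy and Cck were kept and that of Cort was lost. When any 1 library was left out, 8 of 8 oligodendrocyte markers were called lower in each genotype, while 0 to 4 astrocyte markers were called lower in WT and 1 to 4 in KO mice. The WT calls of Kl, Zbtb20 and Ramp3 and the KO calls of En2, Npas1 and Htr3a were each lost without at least 1 library, and the KO calls of Kl, Zbtb20 and Ramp3 were kept without any one. The part of these markers in the neuropeptide values was not tested.

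Relative to the geometric mean of Gad1, Gad2 and Slc32a1, the genes for the enzymes that make GABA and for its vesicular transporter, Sst stood at 85.5% ± 31.1 in P25-WT, 79.9% ± 6.32 in P25-KO, 52.2% ± 1.97 in P60-WT and 60.4% ± 2.42 in P60-KO libraries (SD, n = 3 each). On this scale the P60 libraries ran from 50.1% to 63.1% and the P25 libraries from 64.8% to 121%, so the ages did not overlap. The reference itself was 6440 to 7157 normalized counts in P25-WT and 7347 to 7532 in P60-WT libraries, which did not overlap, and 6888 to 7362 in P25-KO and 6997 to 7694 in P60-KO libraries, which did, so the ratios also hold this difference. Without replicate 2 the P25-WT mean of Sst was 67.6% (64.8% and 70.5%, n = 2), that of Npy 21.6% and that of Vip 7.97%. Npy stood at 25.2% ± 6.39, 23.5% ± 2.80, 15.3% ± 1.18 and 16.6% ± 0.995 in the same order of groups, again without overlap of the ages. Vip, by contrast, stood at 9.49% ± 2.63 in P25-WT and 8.16% ± 0.539 in P60-WT libraries, which overlapped.

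The receptors of somatostatin and cortistatin, Sstr1 to Sstr5, are inhibitory G protein-coupled receptors. Sstr1 had 592 ± 44.9 normalized counts in P25-WT and 434 ± 22.2 in P60-WT libraries, and 586 ± 61.5 in P25-KO and 417 ± 8.81 in P60-KO libraries (SD, n = 3 each). It fell with age in both genotypes, with log2 fold changes of -0.44 ± 0.10 (SE) in WT mice (limma, adjusted p = 0.0356) and -0.48 ± 0.09 in KO mice (limma, adjusted p = 0.00665). The WT call of Sstr1 was lost without P25-WT replicate 1 or any of the P60-WT libraries, where the log2 fold change stayed between -0.48 and -0.40 (limma, adjusted p from 0.0864 to 0.131), and the KO calls of Sstr1 and Sstr2 were kept without any one library. Sstr2 fell in KO mice, from 698 ± 33.6 to 513 ± 29.6 (SD, n = 3 each), a log2 fold change of -0.44 ± 0.08 (limma, adjusted p = 0.00535). In WT mice Sstr2 had a log2 fold change of -0.42 ± 0.12 (limma, adjusted p = 0.0591). Sstr3 had log2 fold changes of -0.31 and -0.25 that missed the threshold in WT and KO mice (limma, adjusted p = 0.0599 and 0.0551). Sstr4 had values of 0.23 and 0.21 that were not called, and Sstr5, with 13.6 to 30.0 normalized counts over all libraries, was not called either.

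**Figure D4:**
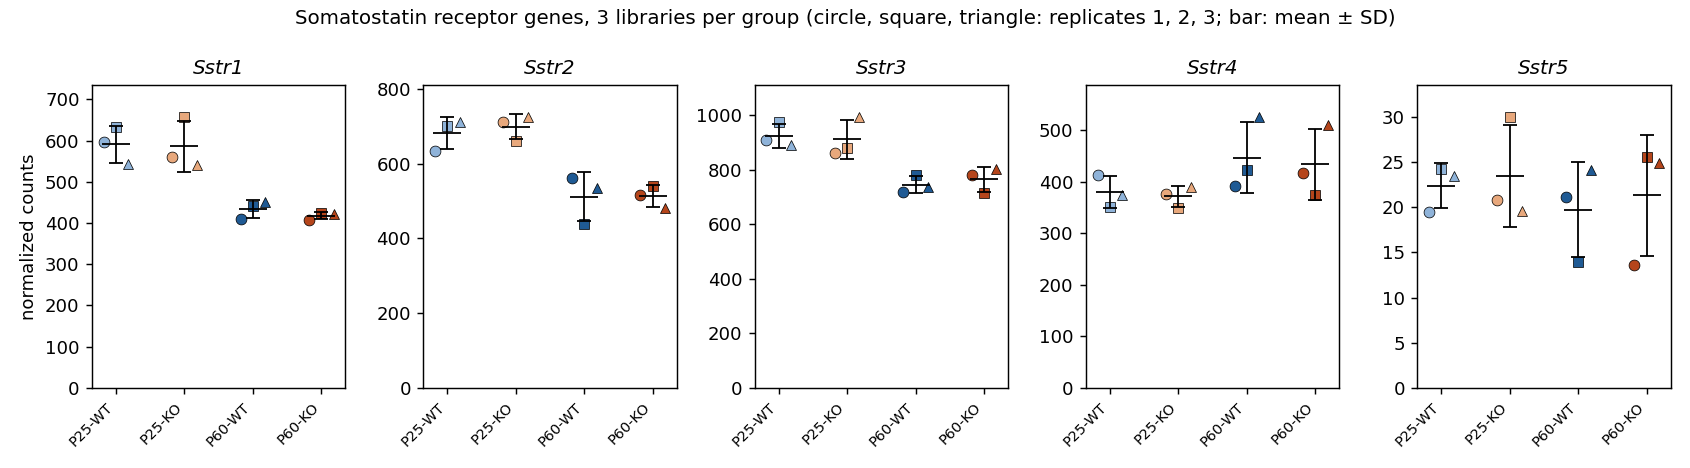
Normalized counts of Sstr1 to Sstr5 (vertical axes, from 0) in each library of the 4 groups; horizontal bars are means and error bars are SD over 3 libraries. Sstr1, Sstr2 and Sstr3 lie lower in the P60 than in the P25 libraries, Sstr4 and Sstr5 overlap between ages, and KO and WT libraries of the same age overlap for all 5 genes.

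Of 20 peptide receptor genes, Sstr1 was the only one called with age in WT mice and Sstr1 and Sstr2 were the only ones in KO mice, and the median log2 fold changes of the list were 0.02 and 0.07. Over all genes tested, 8.65% were called with age in WT mice and 20.7% in KO mice. These shares also stand beside the counts of the other lists. Among 10 proteins of dense core vesicles, the granin Chga was called lower in WT mice (-0.38; limma, adjusted p = 0.0235) and in KO mice (-0.39; limma, adjusted p = 0.00166). The granins Vgf and Chgb were called lower in KO mice, at -0.22 and -0.21, and the list medians were -0.04 in WT and -0.10 in KO mice. The WT call of Chga was lost without P25-WT replicate 1 or any of the P60-WT libraries (limma, adjusted p from 0.0791 to 0.120), and the KO call of Chgb without P25-KO replicate 1 or 2 or P60-KO replicate 1 or 3, while the KO calls of Chga and Vgf were kept without any one library. Among 8 processing enzymes, none was called in WT mice. In KO mice Cpe, the carboxypeptidase that trims peptides inside the vesicle, was called lower (-0.19; limma, adjusted p = 0.0132) and the related Cpd higher (0.21; limma, adjusted p = 0.0267), with list medians of -0.11 in WT and -0.02 in KO mice. The call of Cpe was kept without any one KO library, and that of Cpd was lost without P25-KO replicate 1 or 3 or P60-KO replicate 3. In WT mice without P25-WT replicate 2, Chgb (-0.21) and Cpe (-0.14) were called lower and Cadps, a vesicle priming factor, higher (0.18), and without P25-WT replicate 3 Scg5 was called lower (-0.44). In KO mice 3 processing enzymes were called lower without P25-KO replicate 2 and 2 without P60-KO replicate 2. Of the peptide receptors, 1 was called higher in KO mice without P60-KO replicate 2 or 3.

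Among 9 genes for peptide degradation and binding, Mme, which encodes neprilysin, a membrane protease that cleaves enkephalins and substance P among others, was called higher in WT mice (0.50; limma, adjusted p = 0.0413) and in KO mice (0.60; limma, adjusted p = 0.0452), and no other gene of the list was called. The WT call of Mme was kept without P25-WT replicate 2 and lost without any other WT library, and the KO call was kept without P60-KO replicate 1 and lost without any other KO library, with values from 0.37 to 0.80 in KO mice. The list medians were -0.02 and 0.02. Without P60-KO replicate 1, 2 genes of this list were called higher in KO mice. Of the other neuropeptide genes, 16 were tested with age in each genotype. None was called in WT mice, and in KO mice Avp, the vasopressin precursor of the hypothalamus, was called lower (-0.65; limma, adjusted p = 0.0475), with list medians of -0.10 in WT and -0.12 in KO mice. This call of Avp was kept without P25-KO replicate 1 and lost without any other KO library. Without P60-KO replicate 1 or 3, 1 gene of this list was called higher in KO mice. Of 12 activity genes, none was called in WT mice, while in KO mice Inhba and Npas4 were called higher (0.72 each) and Nptx2 lower (-0.36), with list medians of 0.12 in WT and 0.31 in KO mice. The calls of these 3 genes were each lost without 4 of the 6 KO libraries and kept without P25-KO replicate 2, and also without P60-KO replicate 2 for Inhba, P25-KO replicate 1 for Npas4 and P60-KO replicate 1 for Nptx2. Without P25-KO replicate 3, 6 of the 12 activity genes were called higher and 0 lower in KO mice, with a list median of 0.60. The WT list median was 0.47 without P25-WT replicate 3 and -0.0085 without P25-WT replicate 1. In WT mice Fosb was called lower (-0.87) without P25-WT replicate 2, Inhba higher (0.91) without P60-WT replicate 2, and Arc, Junb, Npas4 and Nr4a1 higher (0.47 to 0.81) without P25-WT replicate 3. Leaving out that last library also called Ece2 of the degradation list higher (0.44) and Nts, the neurotensin precursor, lower (-0.74). The summed level of the activity genes was 33397 in the highest P25-KO library and 40107 in the highest P25-WT library, against 18976 to 21587 in the other P25 libraries.

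Whether loss of Shank3 changed the neuropeptides was asked within each age. At P25, 0 of the 10 members were called by limma, where 1 of 17515 genes was called (0.00571%, Shank3) and 238 genes had an unadjusted p under 0.05. The log2 fold change of Sst was 0.02 ± 0.17 (SE), with a 95% interval from -0.36 to 0.41, an interval wide enough to hold the value at P60. Without P25-WT replicate 2 it was 0.26, all 10 members were above 0, and their median was 0.12, with Tac1 at 0.27 against 0.12 with that library in. The members lay between -0.06 for Vip and 0.13 for Cort with all libraries in, with a median of 0.03 against -0.0082 over all genes, and 6 were above 0. No member had KO and WT libraries that did not overlap, where 2.26% of all genes did not overlap with KO higher and 2.5% with KO lower.

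At P60 the values are given without a test. Sst was 1.16 times as high in KO as in WT mice, a log2 fold change of 0.21. Pdyn had 887, 880 and 920 normalized counts in P60-KO and 818, 798 and 800 in P60-WT libraries, a log2 fold change of 0.15. Tac1 had 1204, 1201 and 1234 in P60-KO and 1145, 1055 and 1111 in P60-WT libraries, a log2 fold change of 0.14. In these 3 genes the KO libraries lay wholly above the WT libraries, and the differences were 9.93% to 15.9% of the WT mean.

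Penk had 5523, 5530 and 5573 normalized counts in P60-KO and 5448, 5264 and 5263 in P60-WT libraries, a difference of 4.07% without overlap. For Crh, Pnoc, Cort, Npy and Cck the log2 fold changes were 0.17, 0.17, 0.15, 0.12 and 0.08, and their groups overlapped. Leaving out 1 library moved them over 0.13 to 0.25 for Crh, 0.08 to 0.24 for Pnoc, 0.09 to 0.26 for Cort, 0.08 to 0.17 for Npy and 0.03 to 0.11 for Cck. Vip was the only member below 0, at -0.06. In all, 9 of 10 estimates were above 0, with a median of 0.15 against 0.00013 over all genes. The groups did not overlap, with KO higher, in 4 members (4.16% of all genes) and with KO lower in 0 (3.63%), and nothing is read from this count because the contrast was known when the members were chosen. By limma 1 of 17610 genes was called at P60 (0.00568%, Shank3), and 440 genes had an unadjusted p under 0.05.

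Cerebellar markers were higher in 2 of the P60 libraries than in the rest. The summed level of 5 cerebellar markers was 2210 normalized counts in P60-WT replicate 2 and 1073 in P60-KO replicate 1, against 606 to 886 in the other libraries, and P60-WT replicate 2 was the lowest of its group for 7 of the 10 members and P60-KO replicate 1 for 3, with median deviations of -0.11 and -0.01 on the log2 scale from the other 2 libraries. The cerebellar granule cell receptor gene Gabra6 was at or near 0 in the P25 groups, with means of 0.782 in KO and 0.657 in WT mice. In P60-WT libraries its median was 1.11 and its highest value 220.75, and in P60-KO libraries they were 4.40 and 68.5. The source of these transcripts was not tested. With both libraries left out, an alternative chosen after the data were seen, the log2 fold change of Sst at P60 was 0.21, that of Npy went from 0.12 to 0.08, that of Cck from 0.08 to 0.02 and that of Pnoc from 0.17 to 0.03, while that of Vip turned from -0.06 to 0.06. Relative to Gad1, Gad2 and Slc32a1, Sst ran from 58.5% to 63.1% in P60-KO and from 50.1% to 54.0% in P60-WT libraries. Relative to the striatal projection neuron markers, Tac1 ran from 58.1% to 63.6% in P60-KO and from 51.4% to 54.7% in P60-WT libraries, and Pdyn from 43.3% to 46.9% and from 37.0% to 39.8%, so the groups of these 3 genes did not overlap on these scales either. Penk on the striatal scale ran from 262% to 292% in P60-KO and from 244% to 263% in P60-WT libraries, which overlapped. The striatal reference itself was 1893 to 2125 normalized counts in P60-KO (median 1966) and 2004 to 2159 in P60-WT libraries (median 2091). Ratios to it thus also hold this lower KO median.

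None of the genes on the 6 lists of peptide receptors, processing enzymes, vesicle proteins, degradation and binding, other neuropeptides and activity genes was called between KO and WT mice at either age. For the somatostatin receptors the log2 fold changes of KO against WT at P60 were -0.05 for Sstr1, 0.01 for Sstr2, 0.04 for Sstr3, -0.04 for Sstr4 and 0.09 for Sstr5.

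Whether the genotype difference changed with age was asked with an interaction term over all 12 libraries. By limma 0 of 17594 genes were called (0.0%), and 288 genes had an unadjusted p under 0.05. For Sst, as a description, the genotype difference was larger at P60 than at P25 by 0.19 on the log2 scale. Without P25-WT replicate 2 this value was -0.04, so its sign rested on that library.

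The genes whose profile over the 12 libraries was most like that of Sst were sought among 6756 genes of similar spread, by the root mean square difference of log2 deviations from each gene's own mean. The closest were Tmem205 (0.060), Tm2d2 (0.074), Polr2d (0.074), Tspan12 (0.076) and Ndufa3 (0.079), against a median of 0.336 over the genes compared and 0.291 for Sst around its own mean. Among the members Npy was closest, at rank 21, followed by Cort at rank 308 and Cck at rank 391. Tmem205 had 569 and 557 normalized counts in P25-WT and P25-KO mice and 382 and 425 in P60-WT and P60-KO mice. The median transcript length of these 5 genes was between 413 and 1281 bases, and that of Sst was 721 bases. The high value of P25-WT replicate 2 is part of the profile that was matched.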

How the data were processed

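RNA-Seq libraries of forebrain from 3 mice per group in 4 groups were compared, grouped and numbered as their titles say. Per the methods of the study, the authors estimated transcript abundance with Salmon, summarised it per gene with tximport and normalized it with DESeq2. The submitters' processing notes list GRCm38, Salmon 1.1.0, DESeq2 1.26.0 and R 3.6.2, and the methods name other versions of the last 2. The deposited values are a count-like signal, which the authors scaled per gene and library across the 12 libraries. They are not whole reads (2.15% of values under 50 lie within 0.01 of a whole number), so no count model was used, the depth behind a value is unknown, and precision is limited by having 3 libraries in a group. P-values set a difference between groups against the spread between these libraries, with a variance that limma moderates over all genes.

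Symbols, positions and lengths came from GENCODE release M21 (GRCm38), which matched 19252 of 19268 identifiers, and promoters from RefSeq (GRCm38.p6). The annotation release and strand setting of the quantification were not given in the sources used here. Transcript words of 31 bases were looked up in all other genes.

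Values were tested as log2(value + 1) with limma 3.58.1 in R 4.3.3 (lmFit, eBayes with a variance trend) over all genes with a mean of at least 10 in the fit. A Benjamini-Hochberg adjusted p under 0.05 over all genes tested is a call, and fold changes refer to log2(value + 1), so those of genes with low values come out too small. KO was compared with WT in the 6 libraries of each age, P60 with P25 in the 6 libraries of each genotype, and the interaction was fitted to all 12. The procedure was tested on simulated data. With 3 against 3 libraries an exact permutation test of 1 gene cannot go below 0.1 and was not used.

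The members and the gene lists (peptide receptors, processing enzymes, dense core vesicle proteins, degradation and binding, other neuropeptides, activity genes and cell type markers) were chosen with earlier results of these data known. The genes named were the 10 members, Shank3, the 5 genes of most similar profile to Sst (mean of at least 100, spread from 0.5 to 2 times that of Sst), Sstr1 to Sstr5, and up to 4 called genes per list, direction and comparison. Gabra6, Kl, Zbtb20, Ramp3, En2, the interneuron markers named and the genes called with just 1 library left out were singled out after their values were seen, and 1 further interneuron marker is not reported here by name. Alternatives changed the pseudocount to 10, the minimum mean to 50 or none, the scaling, the variance model and the samples in the fit, added the replicate block, or left out 1 library. Deviations from the group mean, correlated between libraries with the same number, gave values from -0.07 to 0.17, and in no comparison were all above 0.1, so the numbers were not taken to pair libraries.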

Additional observations from a re-analysis of the deposited data

How the results depend on the processing

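Of 280 values of single members with age under an alternative, 250 kept their direction and their side of the threshold, 5 passed it newly, 19 missed it newly and 6 changed sign, all of these from estimates that were not called. Of the KO against WT values, 15 of 140 changed sign at P25 and 3 of 150 at P60. Without the variance trend 0 members were called with age in WT and 2 in KO mice, the latter Sst and Npy, and 192 and 1725 genes in all, with 0 genes called between KO and WT at P25 and 0 at P60. With all 12 libraries in the fit 5 members (Sst, Npy, Cck, Pdyn and Cort) and 3442 genes were called in WT mice. With the WT libraries alone 1521 genes were called, so the count over all genes rose as well. In KO mice that fit kept the calls of Npy and Cck and lost those of Sst and Cort, and its count over all genes is not reported here. With the replicate block 0 genes were called at P25, Cort in KO mice missed the threshold (adjusted p = 0.0605), and no other member changed its call. With equal library totals, Cck at P25 (KO against WT) was 0.013 and Pnoc with age in KO mice 0.0058. Without the 2 libraries with cerebellar markers, chosen after seeing the data, Vip at P60 was 0.063 and 3 genes were called. The cause of these shifts was not tested.

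Leaving out 1 library, the KO against WT value at P25 ran from -0.12 to 0.26 for Sst, -0.10 to 0.14 for Npy, -0.16 to 0.11 for Vip, -0.064 to 0.091 for Cck, -0.036 to 0.13 for Penk, -0.0068 to 0.30 for Cort, -0.011 to 0.16 for Crh and -0.15 to 0.014 for Pnoc, and at P60 from -0.11 to 0.0052 for Vip. With age, Vip ran from -0.17 to 0.094 and Tac1 from -0.011 to 0.23 in WT mice, and Vip from -0.14 to 0.0088 and Pnoc from -0.11 to 0.047 in KO mice. The interaction of Sst ran from -0.045 to 0.33. The number of members called with age ran from 0 to 3 in WT and 3 to 4 in KO mice. The number of genes called ran from 122 to 2403 with age in WT mice, lowest without P60-WT replicate 3 and highest without P25-WT replicate 2, from 2093 to 3230 in KO mice, from 0 to 8 for P25, from 1 to 3 for P60 and from 0 to 1 for the interaction.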
